A study of Mus musculus with 4 samples.

Results

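The 10 genes described here encode central components of the Wnt and β-catenin pathway. They were taken by name from the count files: the co-receptors Lrp5 and Lrp6, the destruction complex genes Axin1, Axin2, Apc, Gsk3a and Gsk3b, the effector Ctnnb1 (β-catenin), the repressor Tcf7l1, and Cdh1 (E-cadherin). These are 10 of 37311 gene identifiers in the files, and all 10 were among the 13809 genes with enough counts to be tested. The libraries came from J1 mouse embryonic stem cells (strain 129S4/SvJae) that carried hairpins against eIF4A3, an RNA helicase and a core subunit of the exon junction complex. Ribosome protected fragments (RPF, also called footprints) were sequenced from 2 biological replicates and total RNA from 2. All 4 libraries are eIF4A3 knockdown libraries, so the comparison is of footprints with total RNA within knockdown cells, and unperturbed cells were not analysed here. Cells were grown without feeders in serum and LIF, infected with the hairpins sheIF4a3-2 and sheIF4a3-3, selected with 1 µg/mL puromycin for 3 days, and lysed on day 4.5 after 1 min of cycloheximide (0.1 mg/mL), which arrests elongating ribosomes. The labels do not say which hairpin a replicate received or whether libraries of one number share a lysate.

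In the absence of Wnt, a destruction complex built on AXIN and APC scaffolds holds β-catenin for phosphorylation by casein kinase 1 and by GSK3, after which β-catenin is ubiquitinated and degraded. Wnt binding to Frizzled and LRP5 or LRP6 stops this, and stabilised β-catenin enters the nucleus and binds TCF and LEF proteins. In mouse embryonic stem cells TCF7L1 represses pluripotency genes, β-catenin relieves that repression, and inhibition of GSK3 is widely used to favour self-renewal. A separate pool of β-catenin sits at the plasma membrane, bound to the cytoplasmic tail of E-cadherin.

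Ribosomes begin at the start codon, so its surroundings are shown for 9 of the genes, the region where footprints of a coding sequence start. Each line gives 9 bases before the ATG and 12 from it, 5′ to 3′ on the coding strand, from GENCODE M21 transcripts (GRCm38). Capitals mark the base 3 before the ATG, the ATG, and the base after it.
Lrp5: ccggacGacATGGaaacggcg
Lrp6: ggggggAagATGGgggccgtg
Axin1: tgttcaCtgATGCagagtccc
Axin2: tccctcAccATGAgtagcgcc
Gsk3a: ctcggcGccATGAgcggcggc
Gsk3b: agagccAtcATGTcggggcga
Ctnnb1: gcgtggAcaATGGctactcaa
Tcf7l1: ggccccAccATGCcccagctc
Cdh1: gggtccGccATGGgagcccgg

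The start codons lie at chr19:3686440-3686442 (minus strand) for Lrp5, chr6:134566695-134566697 (minus) for Lrp6, chr17:26142684-26142686 (plus) for Axin1 and chr11:108923288-108923290 (plus) for Axin2. They lie at chr7:25237658-25237660 (minus) for Gsk3a, chr16:38090526-38090528 (plus) for Gsk3b, chr9:120950221-120950223 (plus) for Ctnnb1, chr6:72788950-72788952 (minus) for Tcf7l1 and chr8:106603495-106603497 (plus) for Cdh1. The vertebrate start context has a purine before the ATG and G after it at the capitalised places. A or G stood 3 bases before the ATG in 9 of the 10 genes, all but Axin1, and G followed the ATG in 5. Among 12359 tested coding genes these shares were 86.6% and 53.3%. The 5′ UTR of these transcripts ran from 114 bases in Lrp5 to 1525 bases in Gsk3b, against a median of 184 bases over the coding genes. No ATG lay upstream of the start in the 5′ UTR of Ctnnb1, Tcf7l1, Cdh1 and Gsk3a, 4 of the 10 genes, against 47.6% of the coding genes. Gsk3b had 8 upstream ATGs, Lrp6, Apc, Axin1 and Axin2 had 2 each, and Lrp5 had 1.

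Gene counts ranged from 7615277 to 9434987 in the RPF libraries and from 8218020 to 8969965 in the total RNA libraries. Levels are in CPM, counts scaled to the total of the tested genes after trimmed mean of M-values (TMM) scaling. A count of 0 allows 3 counts, or 0.388 and 0.437 CPM in RPF replicates 1 and 2 against 0.294 and 0.310 CPM in total RNA replicates 1 and 2, for counting error only, since reads are not independent molecules. The targeted gene, Eif4a3, had 1640 and 1325 counts in the RPF libraries, against 1229 and 975 counts in the total RNA libraries. Without cells that lack the knockdown, these counts do not measure its depth, and 33.9% of the 28-base stretches of Eif4a3 occur in other genes. The 10 pluripotency markers summed to 5962 and 5298 CPM in RPF, against 4515 and 3826 CPM in total RNA. The 8 fibroblast markers summed to 19.0 and 15.3 CPM in RPF, against 10.9 and 10.7 CPM in total RNA. Among them Dcn was at 0 in all 4 libraries, whereas Col1a1, Col1a2, Thy1 and Pdgfrb had counts in all 4. Col1a1 had 39 and 25 counts in RPF and 17 and 21 counts in total RNA. Sums for other lineages were low beside that of the pluripotency markers. The 6 primitive endoderm markers summed to 52.9 and 40.1 CPM in RPF, and 34.5 and 27.9 CPM in total RNA. For 6 trophectoderm markers the sums were 13.7 and 14.3 CPM in RPF, and 8.42 and 9.80 CPM in total RNA. For 7 mesoderm and neuroectoderm markers they were 31.3 and 45.5 CPM in RPF, and 26.7 and 28.6 CPM in total RNA. Most of this last sum was Neurod1, with 25.2 and 36.7 CPM in RPF, and 20.9 and 22.7 CPM in total RNA. The part of these other cell types in the ratios below was not tested. In such bulk samples, fewer cells of a type and less RNA per cell cannot be told apart.

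The 10 genes did not move together. Ctnnb1, Tcf7l1 and Cdh1 were higher in footprints than in total RNA, by 1.79-fold to 1.98-fold, whereas both LRP co-receptors, Apc and Gsk3b were lower, by 1.64-fold to 2.80-fold. Axin1, Axin2 and Gsk3a did not pass the test. The test was edgeR's quasi-likelihood test of RPF against total RNA over all 13809 genes. The log2 ratio (RPF over total RNA) is given ± SE, and a gene is called higher or lower at a Benjamini-Hochberg adjusted p of at most 0.05. Thus 3 of the 10 genes were called higher, beside 20.5% of all genes tested, and 4 were called lower, beside 21.2%. Both RPF libraries lay above both total RNA libraries for 3 of the 10 genes, beside 34.9% of all genes, and below both for 5, beside 37.9%. The median log2 ratio was -0.23 over the 10 genes and -0.02 over all genes. With 10 genes these counts are a description only, and nothing is read from them about the pathway as a whole.

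**Figure D1:**
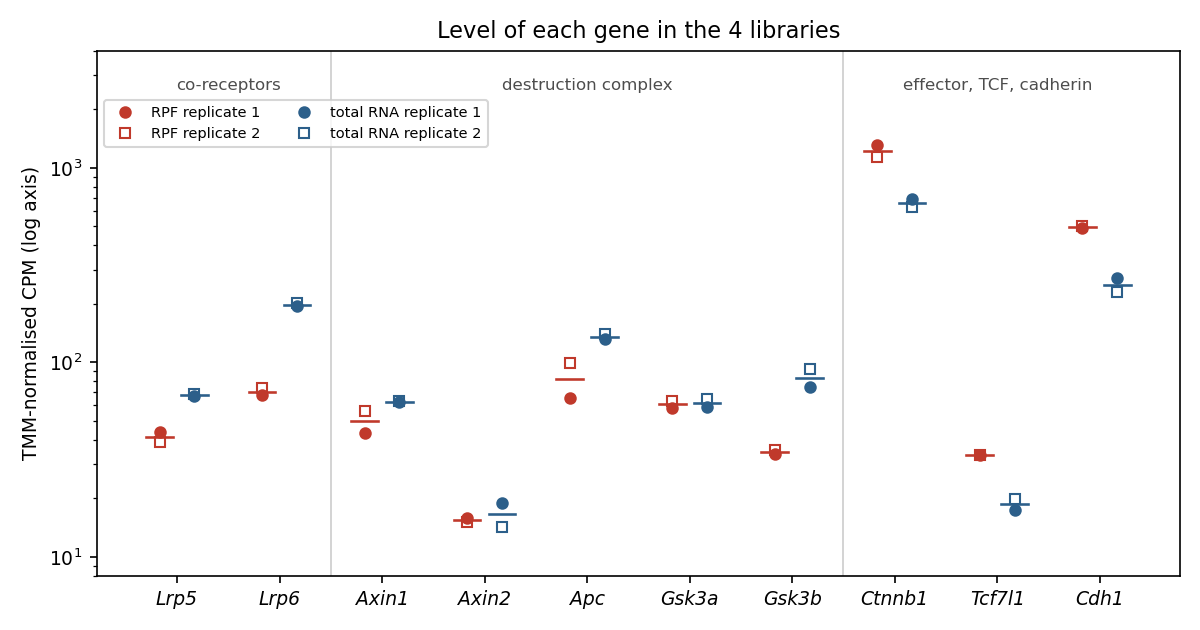
Level of each gene in each library (TMM-normalised CPM, log axis), with RPF left of total RNA and a bar at the mean of 2 libraries. Ctnnb1 reached 1314 and 1139 CPM in RPF, against 693 and 630.2 CPM in total RNA, and the co-receptors Lrp5 and Lrp6 lay lower in both RPF libraries than in both total RNA libraries.

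The co-receptor genes were both lower in footprints. Lrp6, whose product is phosphorylated on its cytoplasmic tail after Wnt binding and recruits AXIN, had 67.6 and 73.8 CPM in RPF replicates 1 and 2, against 193.8 and 202.7 CPM in total RNA replicates 1 and 2. Each RPF library was far below each total RNA library, and the replicates of a fraction lay close together. The log2 ratio of Lrp6 was -1.49 ± 0.14 (2.80-fold lower, adjusted p = 0.000776 in edgeR), the lowest of the 10 genes, and 8.82% of all tested genes had a ratio at or below it. Lrp5, a close relative with a prominent role in bone, had 43.6 and 38.8 CPM in RPF, against 67.0 and 68.4 CPM in total RNA. The fractions did not overlap for Lrp5, and the gap was smaller than for Lrp6. Its log2 ratio was -0.72 ± 0.14 (1.64-fold lower, adjusted p = 0.00718 in edgeR). Over the 4 pairings of an RPF with a total RNA library, the log2 ratio ran from -1.58 to -1.39 for Lrp6 and from -0.82 to -0.62 for Lrp5.

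Among the destruction complex genes, Gsk3b and Apc were lower in footprints. Gsk3b encodes one of the 2 GSK3 kinases that phosphorylate β-catenin. It had 33.6 and 35.4 CPM in RPF, against 74.5 and 92.3 CPM in total RNA. Both RPF libraries were below both total RNA libraries, and the total RNA replicates were the more spread. Its log2 ratio was -1.27 ± 0.16 (2.42-fold lower, adjusted p = 0.00155 in edgeR). Coding sequence makes up 17.6% of the exon length of Gsk3b, against a median of 35.8% over tested coding genes, and footprints fall mainly on coding sequence while total RNA reads fall on whole exons. After a correction for coding share the log2 ratio of Gsk3b was -0.98 (adjusted p = 0.00338 in edgeR). The correction depends on which exons are counted. The Gsk3b transcript with the longest coding sequence is 74.2% coding, against a median of 55.1% over coding genes. It is not the transcript used above for the start codon, whose 5′ UTR has 1525 bases, and the counts are those of the whole gene. A correction for the share of 74.2% gave -1.48 (adjusted p = 0.00116 in edgeR). Gsk3b was called lower under both, and over 17 alternative settings its adjusted p was at most 0.00823. Gsk3a, its paralogue, had 58.3 and 63.4 CPM in RPF, against 59.1 and 64.6 CPM in total RNA, and the fractions overlapped. Its log2 ratio was -0.02 ± 0.14 (adjusted p = 0.903 in edgeR). Of the 28-base stretches of Gsk3a, 6.13% also occur in the pseudogene Gm6275, the largest shared portion among the 10 genes. For 3 of the others, Ctnnb1, Axin1 and Axin2, no stretch was shared.

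Apc, the large scaffold that helps to capture β-catenin, had 65.9 and 98.7 CPM in RPF, against 132.1 and 139.4 CPM in total RNA. Both RPF libraries were below both total RNA libraries, but the RPF replicates were far apart, so that the mean was 82.3 ± 23.2 CPM in RPF and 135.8 ± 5.20 CPM in total RNA (SD, n = 2 each). The log2 ratio was -0.72 ± 0.20 (1.65-fold lower, adjusted p = 0.0262 in edgeR). The call depended on single libraries: the ratio was -0.45 without RPF replicate 1 (adjusted p = 0.0607) and -0.68 without total RNA replicate 2 (adjusted p = 0.0558). With correction for coding share and exon length together it was -0.45 (adjusted p = 0.115). Over the 17 alternative settings its adjusted p ran from 1.37e-13 to 0.279. Among these settings is a block by replicate number, a pairing that the labels do not state. The very small low ends of such ranges are therefore not evidence beyond the main fit.

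Neither AXIN gene passed the test. Axin1, the scaffold present in most cells, had 43.4 and 56.0 CPM in RPF, against 62.3 and 63.5 CPM in total RNA. Both RPF libraries lay below both total RNA libraries, with a log2 ratio of -0.34 ± 0.16 (adjusted p = 0.135 in edgeR). Without RPF replicate 2 the ratio was -0.53 and was called lower (adjusted p = 0.0299), and with correction for coding share it was -0.56 (adjusted p = 0.03). Its adjusted p over the 17 settings ran from 0.0028 to 0.972. Coding sequence is 68.0% of the merged exon length of Axin1, the largest such share among the 10 genes. In the transcript with the longest coding sequence it is 68.9%, below the shares of Tcf7l1 (95.2%), Lrp5 (93.8%) and Gsk3b (74.2%). Axin2, itself a widely used Wnt target gene that encodes a feedback scaffold, had 15.8 and 15.0 CPM in RPF, against 19.0 and 14.2 CPM in total RNA. The fractions overlapped, and total RNA replicate 1 was the highest library. Axin2 had a log2 ratio of -0.11 ± 0.23 (adjusted p = 0.734 in edgeR). Axin2 rested on 122 and 103 counts in RPF and 194 and 138 in total RNA. These were the lowest counts among the 10 genes except in total RNA replicate 1, where Tcf7l1 had 178.

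**Figure D2:**
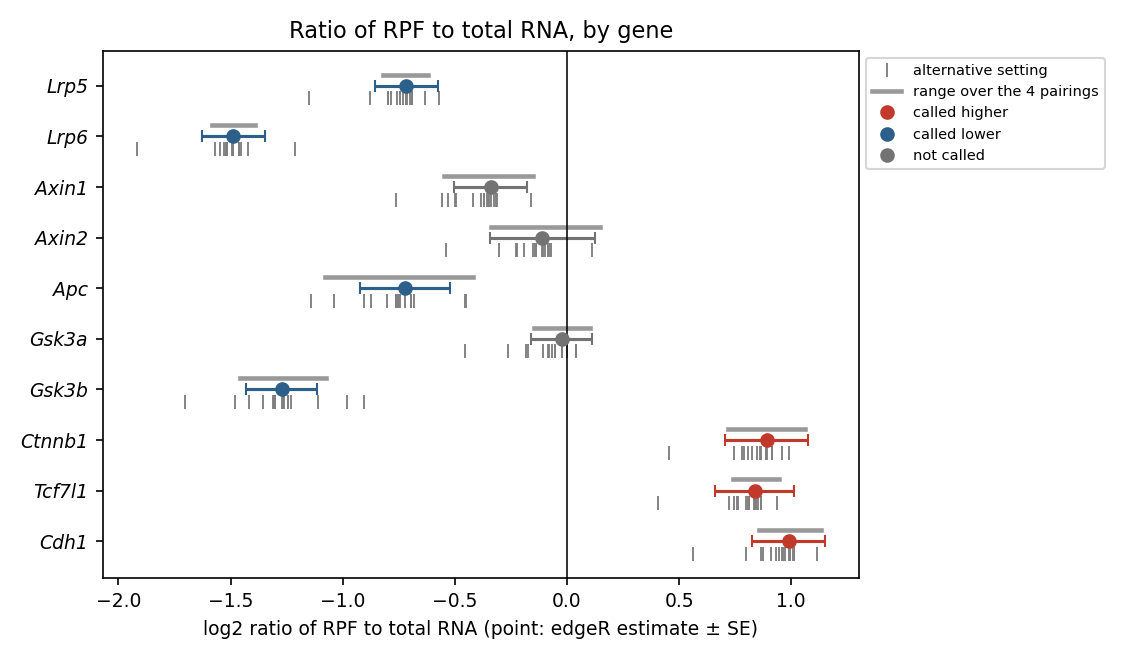
Log2 ratio (RPF over total RNA) for each gene (point with SE bar), its range over the 4 pairings of libraries (thick grey line) and its value under each of 17 alternative settings (ticks). Lrp6 at -1.49 and Gsk3b at -1.27 lie farthest to the left, and Ctnnb1, Tcf7l1 and Cdh1 lie between 0.84 and 0.99.

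The effector, the TCF repressor and the cadherin were higher in footprints. Ctnnb1 encodes β-catenin, which joins Wnt signals to TCF proteins and cadherins to the actin cytoskeleton. It had 1314 and 1139 CPM in RPF, against 693 and 630.2 CPM in total RNA. Both RPF libraries were above both total RNA libraries, and replicate 1 was the higher in each fraction. The log2 ratio was 0.89 ± 0.18 (1.85-fold higher, adjusted p = 0.00882 in edgeR). With library size as the only scaling it fell to 0.46 and was still called higher (adjusted p = 0.0403 in edgeR). The ratio moved little when single libraries were left out, but the call did not survive the loss of a total RNA library. It was 0.96 without total RNA replicate 1 (adjusted p = 0.0567) and 0.82 without total RNA replicate 2 (adjusted p = 0.112), the highest of 17 adjusted p-values that began at 1.55e-16.

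Cdh1 encodes E-cadherin, the adhesion protein of epithelial and naive pluripotent cells. It had 490.6 and 502.0 CPM in RPF, against 271.1 and 229.1 CPM in total RNA. The RPF replicates were close together and well above both total RNA libraries. Its log2 ratio of 0.99 ± 0.16 (1.98-fold higher, adjusted p = 0.0037 in edgeR) was the highest of the 10 genes, with 89.0% of tested genes at or below it. Tcf7l1 encodes the TCF family member that acts mainly as a repressor in embryonic stem cells. It had 33.2 and 33.5 CPM in RPF, against 17.4 and 19.9 CPM in total RNA. The 2 RPF libraries were nearly equal and lay above both total RNA libraries. Its log2 ratio was 0.84 ± 0.18 (1.79-fold higher, adjusted p = 0.0092 in edgeR). Without total RNA replicate 1 it was 0.74 (adjusted p = 0.073), and with library size as the only scaling it was 0.41 (adjusted p = 0.14). That scaling moved the median of all genes to -0.46. The adjusted p ran from 9.75e-08 to 0.14 over the 17 settings for Tcf7l1 and from 8.2e-23 to 0.0441 for Cdh1.

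The coding share of the exons was 45.4% for Ctnnb1, 58.0% for Cdh1 and 45.8% for Tcf7l1. With correction for it their log2 ratios were 0.78, 0.80 and 0.72, each still called higher (adjusted p = 0.0138, 0.00775 and 0.0154 in edgeR). The same correction gave -0.88 for Lrp5, -1.49 for Lrp6 and -0.90 for Apc, all still called lower.

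Ctnnb1 and Cdh1 together made up most counts of the 10 genes. Ctnnb1 took 60.7% and 55.4% of their counts in RPF, against 43.6% and 41.3% in total RNA. Cdh1 took 22.6% and 24.4% in RPF, against 17.1% and 15.0% in total RNA. The other 8 genes summed to 361.5 and 414.6 CPM in RPF, against 625.1 and 665.1 CPM in total RNA. Thus the summed level of the 10 genes, 2166 and 2056 CPM in RPF against 1590 and 1524 CPM in total RNA, was higher in RPF although that of the other 8 was lower.

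Levels between genes can be compared only per length, here RPF CPM per kilobase of coding exon and total RNA CPM per kilobase of exon, as mean ± SD of 2 libraries. The order in footprints was Ctnnb1 (521 ± 52.5), Cdh1 (187 ± 3.05), Gsk3a (41.4 ± 2.46), Gsk3b (20.0 ± 0.742), Axin1 (19.1 ± 3.41), Tcf7l1 (18.6 ± 0.120), Lrp6 (14.6 ± 0.899), Apc (9.28 ± 2.61), Lrp5 (8.22 ± 0.676) and Axin2 (6.11 ± 0.212). In that order the libraries of Gsk3b and Axin1, of Axin1 and Tcf7l1, and of Apc and Lrp5 overlapped, so these neighbours are not separated. The order in total RNA was Ctnnb1 (127 ± 8.61), Cdh1 (54.7 ± 6.49), Gsk3a (21.3 ± 1.33), Axin1 (16.4 ± 0.222), Lrp6 (14.5 ± 0.462), Gsk3b (8.48 ± 1.28), Apc (8.42 ± 0.323), Lrp5 (6.95 ± 0.106), Tcf7l1 (4.76 ± 0.449) and Axin2 (3.02 ± 0.610). In total RNA only Gsk3b and Apc overlapped among neighbours. Ctnnb1, Cdh1 and Gsk3a led and Axin2 came last in both fractions, while Tcf7l1 stood at place 6 in footprints and place 9 in total RNA. Lengths merge all annotated exons of a gene. With the length of the transcript of longest coding sequence instead, Gsk3b had 26.6 CPM per kilobase in RPF and 47.6 CPM per kilobase in total RNA. These values still use the counts of all its exons, including exons outside that transcript, and the orders above keep merged lengths. They therefore do not give Gsk3b a place in either order.

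**Figure D3:**
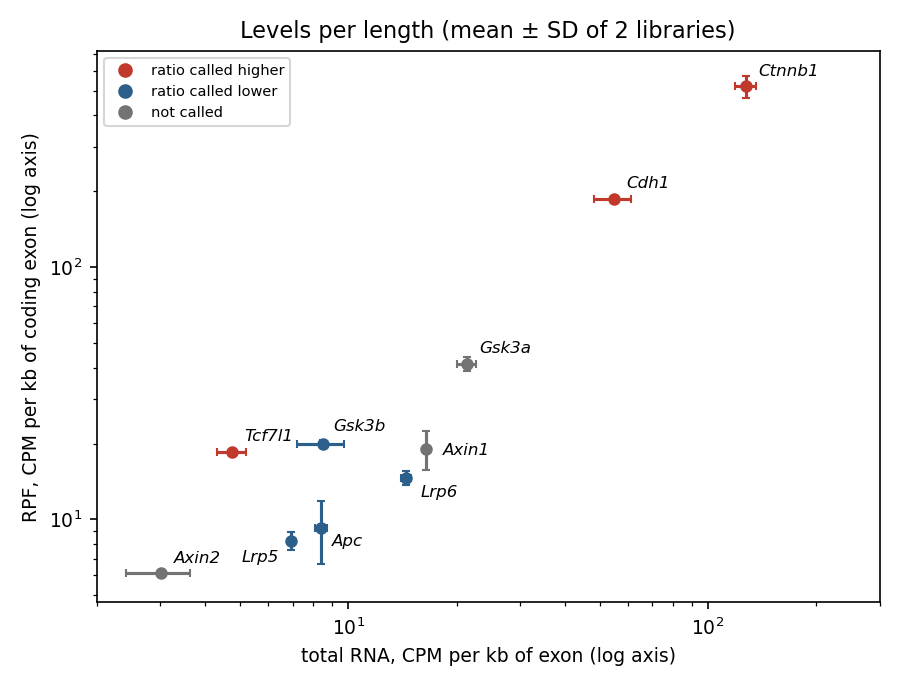
RPF level per kilobase of coding exon against total RNA level per kilobase of exon (both CPM per kilobase, log axes), mean ± SD of 2 libraries for each of the 10 genes. Ctnnb1 and Cdh1 stand above the others in both fractions, and Tcf7l1 has a lower total RNA level than Gsk3b, Apc and Lrp5 but a higher RPF level than Apc and Lrp5.

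Paralogues were set against each other by the ratio of their counts within each library, which removes the library's scaling. Gsk3a had 1.73 and 1.79 counts per count of Gsk3b in RPF, against 0.794 and 0.700 in total RNA. Gsk3a thus had more counts than Gsk3b in both RPF libraries and fewer in both total RNA libraries. These raw counts are not scaled for length, and merged exons span 2900 bases in Gsk3a and 9831 bases in Gsk3b. Per kilobase of merged exons, as above, Gsk3a stood above Gsk3b in both fractions. The log2 difference of the count ratios was 1.24, and its range over the 4 pairings was 1.13 to 1.35. Coding share still enters it. After correction for that share the log2 ratios were -0.18 for Gsk3a and -0.98 for Gsk3b. With the share in the longest coding transcript they were -0.17 and -1.48. Lrp5 had 0.644 and 0.526 counts per count of Lrp6 in RPF, against 0.346 and 0.338 in total RNA, a log2 difference of 0.77 with a range of 0.60 to 0.93. The fractions did not overlap for either pair. For both the two-sided exact permutation test gave p = 0.333, the smallest value that this permutation test allows for 2 against 2 libraries, so this test cannot reach the threshold. Axin1 had 2.75 and 3.73 counts per count of Axin2 in RPF, against 3.28 and 4.46 in total RNA. These overlapped, with a log2 difference of -0.25 (range -0.69 to 0.19, exact permutation p = 0.667).

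The other genes of the pathway were read from 8 lists by role, 122 genes in all, of which 96 were tested. Of these, 16 were called higher and 26 lower, which is 16.7% and 27.1% beside 20.5% and 21.2% of all genes, with a median log2 ratio of -0.14. With either total RNA library left out, fewer genes of the lists were called higher, and so were fewer of all tested genes. Genes named below for each list are its extremes at a mean of at least 10 CPM; others given with a small count were named after their values were seen.

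Most ligand and secretion genes were too low or did not pass. Of 21 genes, 10 were tested, 1 was called higher and none lower, with a median log2 ratio of -0.06. These are 10% and 0%, beside 20.5% and 21.2% of all genes. In edgeR 2 were lower at an unadjusted p below 0.05, and DESeq2 and limma-voom called 0 lower. DESeq2 also called 0 higher. Leaving out either RPF library gave 1 lower call. Wnt5a, a ligand best known for signalling without β-catenin, averaged 15.5 ± 1.89 CPM in RPF and 8.94 ± 0.378 CPM in total RNA (SD, n = 2 each; log2 ratio 0.79 ± 0.24, adjusted p = 0.0341 in edgeR). Wnt5a did not pass without RPF replicate 1 (adjusted p = 0.103), total RNA replicate 1 (0.12) or total RNA replicate 2 (0.17), and in DESeq2 (0.0623), in a range over 17 settings of 0.000427 to 0.268. Porcn, which acylates Wnt proteins, had a log2 ratio of -0.07 (adjusted p = 0.806 in edgeR).

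Of 15 frizzled receptor and co-receptor genes, all tested, 1 was called higher and 4 lower, with a median log2 ratio of -0.09. These are 6.67% and 26.7%, beside 20.5% and 21.2% of all genes. Ryk, a Wnt receptor with an inactive kinase domain, averaged 13.9 ± 0.309 CPM in RPF and 68.8 ± 0.0659 CPM in total RNA. Its log2 ratio of -2.30 ± 0.15 (4.94-fold lower, adjusted p = 0.000355 in edgeR) was the lowest among the 96 tested genes of the 8 lists. The other genes called lower were the frizzled receptors Fzd3 (2.30-fold lower), Fzd5 (1.95-fold) and Fzd6 (2.01-fold). With correction for coding share the log2 ratio of Fzd3 was -0.87 (adjusted p = 0.0416 in edgeR). Fzd3 was not called with exon length added (-0.77, adjusted p = 0.0657) or with the share in the longest coding transcript (-0.59, 0.137). Against a fold of 1.5, neither Fzd3 (adjusted p = 0.0605) nor Fzd6 (0.112) passed. Fzd3 was not called without total RNA replicate 2 (adjusted p = 0.0844), and Fzd6 was not called without total RNA replicate 1 (0.117). Mesd, the chaperone that folds LRP5 and LRP6, was called higher, with 159 ± 31.9 CPM in RPF and 110 ± 1.32 CPM in total RNA (log2 ratio 0.53 ± 0.17, adjusted p = 0.0431 in edgeR). Mesd did not pass without RPF replicate 2 (log2 ratio 0.31, adjusted p = 0.171), total RNA replicate 1 (adjusted p = 0.161) or total RNA replicate 2 (0.153), in a range of 1.91e-07 to 0.688.

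Receptor regulators and secreted inhibitors had 11 of 21 genes tested, 1 called higher and 3 lower, with a median log2 ratio of -0.06. These are 9.09% and 27.3%, beside 20.5% and 21.2% of all genes. Kremen1, a receptor for Dickkopf inhibitors, averaged 7.52 ± 2.77 CPM in RPF and 28.4 ± 0.276 CPM in total RNA (log2 ratio -1.92 ± 0.28, adjusted p = 0.00251 in edgeR). Znrf3, a ubiquitin ligase that clears Frizzled, had a log2 ratio of -1.69, and Lgr4, an R-spondin receptor, one of -0.62. Sfrp2, a secreted Wnt antagonist, was the gene called higher, with a log2 ratio of 1.10 (adjusted p = 0.0287 in edgeR). Sfrp2 was not called in DESeq2 (adjusted p = 0.0609), with library size as the only scaling (0.127), or without RPF replicate 1 (0.0824), total RNA replicate 1 (0.143) or total RNA replicate 2 (0.122). Leaving out RPF replicate 2 gave 2 higher calls in this list. Lgr4 was not called without RPF replicate 2 (adjusted p = 0.0934) or total RNA replicate 1 (0.203). Notum, which removes the acyl group of Wnt proteins, had 173 and 75 counts in RPF, against 184 and 94 counts in total RNA, and its log2 ratio of 0.27 ± 0.41 did not pass (adjusted p = 0.633 in edgeR).

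The list of dishevelled genes and destruction complex partners had 21 of 22 genes tested. Of these, 4 were called higher (19% beside 20.5% of all genes) and 11 lower (52.4% beside 21.2%). RPF lay below total RNA in all 4 pairings for 16 of the 21, beside 37.9% of all genes, with a median log2 ratio of -0.58. Tnks2, a tankyrase that marks AXIN for degradation, averaged 197 ± 8.32 CPM in RPF and 480.5 ± 32.1 CPM in total RNA (log2 ratio -1.29 ± 0.15, adjusted p = 0.00133 in edgeR). Csnk1g1 and Csnk1g2, casein kinases of the gamma type that can phosphorylate LRP6, had log2 ratios of -1.50 ± 0.24 and -1.31 ± 0.20 (adjusted p = 0.00324 and 0.00302 in edgeR). None of the lower calls was a dishevelled gene. The genes called higher were Ppp2r1a, Ppp2r5d, Dvl2 and Btrc. Ppp2r1a, a scaffold subunit of protein phosphatase 2A, averaged 478 ± 48.1 CPM in RPF and 198 ± 9.88 CPM in total RNA (log2 ratio 1.27 ± 0.16, adjusted p = 0.00155 in edgeR). Dvl2, an adaptor between Frizzled and AXIN, had a log2 ratio of 0.66, Ppp2r5d, another phosphatase subunit, 0.70, and Btrc, the F-box protein that recognises phosphorylated β-catenin, 0.50. With total RNA replicate 1 or total RNA replicate 2 left out, fewer of these genes were called lower, and so were fewer of all tested genes. Without total RNA replicate 1 fewer were also called higher, again as over all genes. How much of this loss is particular to the list was not tested. Btrc was not called in any of the 4 fits that left out a library (adjusted p = 0.0635 to 0.284). With correction for coding share and exon length 7 genes of the list were called lower, beside 2034 of 12655 coding genes.

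**Figure D4:**
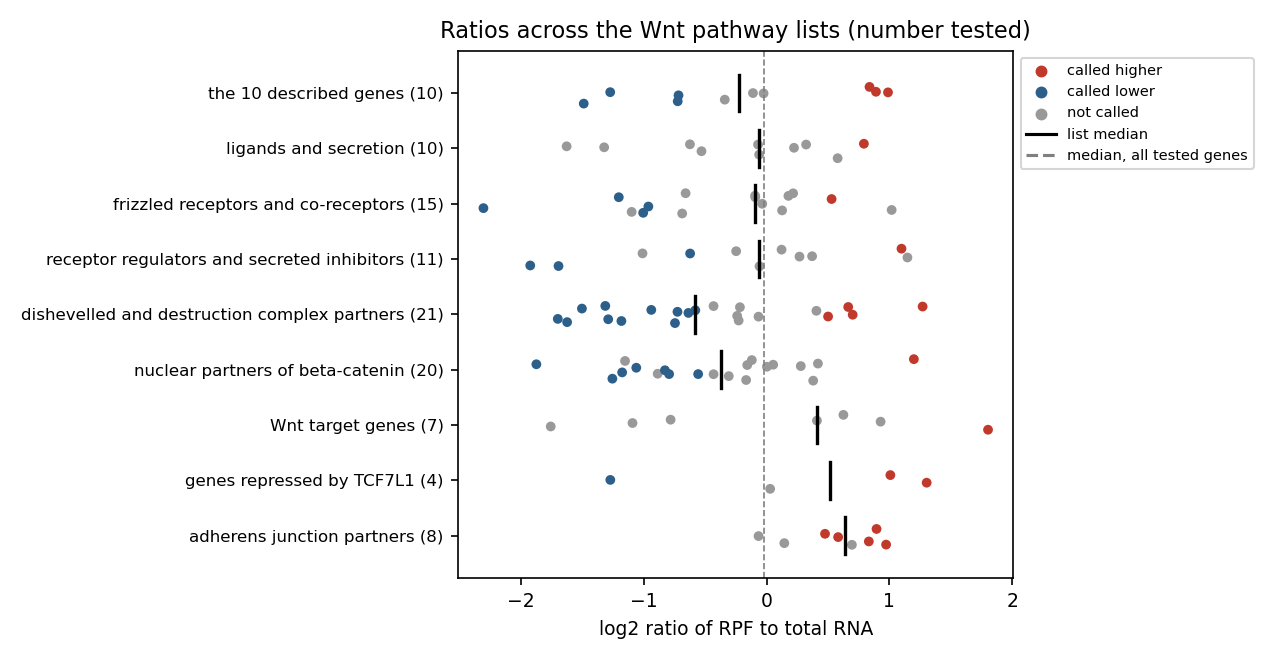
Log2 ratio of RPF to total RNA for each tested gene of the 10 described genes and of 8 lists of other pathway genes, with the list median (black) and the median of all tested genes (dashed, -0.02). The median was -0.58 for dishevelled and destruction complex partners and 0.64 for adherens junction partners.

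All 20 genes for nuclear partners of β-catenin were tested. Of these, 1 was called higher (5% beside 20.5% of all genes) and 7 lower (35% beside 21.2%), with a median log2 ratio of -0.37. Tbl1xr1, a subunit of the NCoR corepressor complex, averaged 41.8 ± 2.57 CPM in RPF and 153 ± 13.6 CPM in total RNA (log2 ratio -1.87 ± 0.15, adjusted p = 0.000489 in edgeR). Ctnnbip1, a small inhibitor of β-catenin binding to TCF, had a log2 ratio of -1.25 ± 0.25 (adjusted p = 0.00705 in edgeR) and Aes, a short member of the Groucho family, one of -1.18 ± 0.15 (adjusted p = 0.00163 in edgeR). Tcf7l2, a TCF that can activate with β-catenin, was the gene called higher, with 22.1 ± 6.63 CPM in RPF and 9.63 ± 1.57 CPM in total RNA (2.30-fold higher, with an SE of 0.28 on the log2 scale, adjusted p = 0.0144 in edgeR). Tcf7l2 did not pass with library size as the only scaling (log2 ratio 0.78, adjusted p = 0.0849) or against a fold of 1.5 (adjusted p = 0.0625), the highest of its 17 settings being 0.0849 and the lowest 2.66e-09. Without total RNA replicate 1, and with any of the corrections for coding share, 2 genes of the list were called higher. Ctnnbip1 did not pass with correction for the share in the longest coding transcript (log2 ratio -0.56, adjusted p = 0.112, the highest of its 17 settings).

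Among adherens junction partners 8 of 9 genes were tested. Of these, 5 were called higher and 0 lower, 62.5% beside 20.5% of all genes, with a median log2 ratio of 0.64. In edgeR 0 were lower at an unadjusted p below 0.05, and DESeq2 and limma-voom also called 0 lower. Ctnna1 (α-catenin), which links β-catenin to actin, averaged 695 ± 68.1 CPM in RPF and 373.5 ± 40.2 CPM in total RNA (log2 ratio 0.90 ± 0.17, adjusted p = 0.00701 in edgeR). Jup (plakoglobin), the closest relative of β-catenin, averaged 169 ± 11.3 CPM in RPF and 86.1 ± 7.17 CPM in total RNA (log2 ratio 0.97 ± 0.14, adjusted p = 0.0026 in edgeR). Cdh3 (P-cadherin) averaged 59.4 ± 1.16 CPM in RPF and 33.4 ± 2.38 CPM in total RNA (log2 ratio 0.83 ± 0.15, adjusted p = 0.00467 in edgeR). The others called higher were Vcl (vinculin), at 0.58 ± 0.15 (adjusted p = 0.0176 in edgeR), and Ctnnd1 (p120-catenin), at 0.48. With total RNA replicate 2 left out Ctnna1 did not pass (adjusted p = 0.0883, the highest of its 17 settings). Vcl did not pass without RPF replicate 1 (adjusted p = 0.0504), total RNA replicate 1 (0.107) or total RNA replicate 2 (0.0884), in a range of 7.31e-09 to 0.524. Afdn (afadin) did not pass, with a log2 ratio of -0.07 (adjusted p = 0.826 in edgeR). Ctnnd1 was not called without RPF replicate 1 (adjusted p = 0.11), total RNA replicate 1 (0.163) or total RNA replicate 2 (0.336). Fewer than 5 were called higher with RPF replicate 1 or either total RNA library left out. With a total RNA library left out, fewer of all genes were called higher too. With library size as the only scaling the count was 2, beside 1223 of all 13809 genes, against 2835 in the main fit.

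Of 10 Wnt target genes 7 were tested, with 1 called higher and 0 lower and a median log2 ratio of 0.41. These are 14.3% and 0%, beside 20.5% and 21.2% of all genes. In edgeR 1 was lower at an unadjusted p below 0.05, and DESeq2 and limma-voom called 0 lower. The 1 higher call became 3 without RPF replicate 2 and with the replicate block, and 2 without total RNA replicate 1, and 1 gene was called lower without RPF replicate 1. Myc, a growth regulator and pluripotency factor, had 89.0 and 45.3 CPM in RPF, against 25.0 and 13.5 CPM in total RNA. RPF lay above total RNA in every pairing, and replicate 1 had a clearly higher level than replicate 2 in each fraction. Its log2 ratio was 1.80 ± 0.38 (adjusted p = 0.00953 in edgeR). Jun, an AP-1 subunit, did not pass (log2 ratio 0.41 ± 0.29, adjusted p = 0.284 in edgeR). Of 4 pluripotency genes known to be repressed by TCF7L1, Klf2 and Nanog were called higher, Tfcp2l1 was called lower and Esrrb did not pass. That is 50% higher and 25% lower, beside 20.5% and 21.2% of all genes. Klf2 averaged 360.6 ± 43.0 CPM in RPF and 146 ± 9.92 CPM in total RNA (log2 ratio 1.30 ± 0.16, adjusted p = 0.00148 in edgeR), and Nanog had a log2 ratio of 1.01. Tfcp2l1 averaged 204 ± 74.4 CPM in RPF and 492.5 ± 97.0 CPM in total RNA (log2 ratio -1.27 ± 0.27, adjusted p = 0.01 in edgeR). With correction for the share in the longest coding transcript Tfcp2l1 did not pass (log2 ratio -0.65, adjusted p = 0.0925, the highest of its 17 settings).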

How the data were processed

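For each of 4 libraries the authors deposited raw, unnormalised read counts by gene. The submitters' processing notes name HTSeq 0.11.2, TopHat2 2.1.1, Bowtie 1.2.3 and edgeR 3.26.8, with mm9 as the build. Per the labels' protocols reads were 50 bp long and each RPF library was sequenced in 4 runs. The sources used here give no annotation release, counted feature or strand setting, so reads of overlapping and antisense genes may not be separable. Rows without a gene were left out: reads outside any feature were 5.95% and 6.66% of alignments tallied in RPF and 23.4% and 26.2% in total RNA. Reads ambiguous between features were 4.96% and 8.58% in RPF and 0.755% and 0.719% in total RNA. Those without a unique alignment were 21% and 20.6% in RPF and 16.6% and 16.5% in total RNA. The part of these reads in the ratios was not tested.

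Symbols (32621 of 37311 identifiers), lengths and start codons came from GENCODE M21 (GRCm38) by Ensembl identifier. Positions are on GRCm38, not on the build of the counts.

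Counts were compared in edgeR 4.0.16 (R 4.3.3, limma 3.58.1) by a quasi-likelihood fit of fraction alone with TMM scaling, after filterByExpr (minimum count 10, total 15), and adjusted over 13809 genes by Benjamini-Hochberg (threshold 0.05, two-sided). The SE is the size of the log2 ratio over the square root of F. The script was tested on simulated data. Replicates are biological per the labels and differed beyond sampling noise (chi-square per gene 23.3 in RPF, 10.7 in total RNA); p-values measure the spread between 2 libraries per fraction (common biological coefficient of variation 0.172). Where a library is left out, the lone library is assumed to vary like the other fraction. The coding share correction took a loess curve (span 0.5) off the ratio.

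Alternatives were other scalings and filters, limma-voom, DESeq2 1.42.0, glmTreat (fold 1.5), a replicate block, length corrections, coding genes only and leaving out each library. Direction in all 4 pairings, and a coding share from the transcript with the longest coding sequence, were added after seeing the data. The 10 genes and the lists were chosen with earlier results of these data known. Genes named by rule were the 10 genes, Eif4a3, the highest and lowest of each list at a mean of at least 10 CPM, and up to 4 called genes of 3 lists. Further genes, among them Fzd3 and Sfrp2 with means below 10 CPM, were named after their values were seen.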

Additional observations from a re-analysis of the deposited data

How the results depend on the processing

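Across 17 alternative settings the calls for Lrp6, Gsk3b and Cdh1 held in every one, and no called gene of the 10 changed direction. With library size as the only scaling, 1223 of all genes were called higher and 4961 lower, against 2835 and 2930 with TMM. The other Wnt genes then had 6 higher and 43 lower calls. The log2 ratio was then 0.46 for Ctnnb1 and 0.56 for Cdh1, both still called higher. It was -0.76 for Axin1 (called lower), 0.41 for Tcf7l1, -0.18 for Notum and -0.037 for Jun. Against a fold of 1.5 (glmTreat), 1155 and 1549 of all genes passed, 1 and 2 of the 10 genes, and 5 and 14 of the other Wnt genes. Ctnnb1 (0.89, adjusted p = 0.0906), Tcf7l1 (0.84), Apc (-0.72) and Lrp5 (-0.72) did not. Gsk3a changed sign with DESeq2 size factors (0.0023) and in DESeq2 (0.0024). Correction for coding share gave -0.56 for Axin1, or -0.50 with the share in the longest coding transcript; with exon length added the values were -0.49 for Axin1, -0.45 for Apc, -0.11 for Notum and 0.085 for Afdn. With replicate number as a block, 4257 of all genes were called higher and 4365 lower and Axin1 was called lower (-0.35). The block gave Axin1 the lowest adjusted p of its range (0.0028). It gave 7.67e-22 for Fzd5 and 1.84e-23 for Nanog, against 0.00257 and 0.00417 in the main edgeR fit. Deviations of same-numbered libraries correlated at 0.386 across genes. This rests on 2 numbers that the labels do not tie to one lysate, so whether they pair the libraries is not known. Leaving out each library gave 1634 to 3123 genes higher and 1861 to 3310 lower, 1 to 3 of the 10 genes higher and 9 to 19 other Wnt genes higher. The log2 ratio then ran from 0.79 to 0.99 for Ctnnb1, -0.53 to -0.16 for Axin1, -0.30 to 0.11 for Axin2, -1.04 to -0.45 for Apc, -0.086 to 0.041 for Gsk3a, 0.74 to 0.94 for Tcf7l1, -0.34 to 0.78 for Notum, -0.060 to 0.76 for Jun and -0.30 to 0.18 for Afdn. Where no value above shows it, the cause was not tested. The lowest count of any of the 10 genes was 103, for Axin2 in RPF replicate 2; how far depth rather than replicate spread limits its ratio was not separated.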
